A study of Mus musculus with 12 samples.

Results

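Expression of 10 genes of reactive gliosis and the injury response (Gfap, Vim, Osmr, Stat3, Socs3, Lif, Fgf2, Serpina3n, Cebpd and Bcl3) was examined in whole retinas of 12 mice. The genes were taken as a named list and found by matching the Ensembl identifiers of the count files to mouse symbols, which placed all 10 among the 54146 genes counted. They were compared to ask whether a gliosis or injury program moved in the retina in the first days after Otx2 is deleted in photoreceptors (PRs). The 9 cKO mice carry Crx-CreERT2, in which the Crx promoter drives a tamoxifen-dependent Cre in PRs, and Otx2flox/flox on a 129/SV background. They received tamoxifen once, at P30, and 3 mice each were killed at P32, P34 and P38, which is 2, 4 and 8 d later. The 3 remaining mice were P30 controls. Their label is control, no ablated cell type or day of induction is given for them, and the sample labels do not spell out their alleles. Age, tamoxifen and deletion therefore changed together between the controls and each cKO age and cannot be told apart. One eye of each mouse was used, the dissected tissue included RNA of the retinal pigment epithelium (RPE), and both sexes were used. Mice are numbered 1 to 3 (P30), 4 to 6 (P32), 7 to 9 (P34) and 10 to 12 (P38).

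Müller glia span the retina and are its main macroglia, and astrocytes lie in the nerve fibre layer. On injury these cells increase intermediate filaments such as GFAP and vimentin. A well-described route runs from ligands of the interleukin 6 family, such as LIF and oncostatin M, through receptors that pair with gp130 to JAK kinases and STAT3, which turns on Gfap, Socs3 and other targets, and SOCS3 then restrains the kinases. PR stress is known to be followed by Lif and Fgf2 induction, and both factors protect PRs. In whole retina, a lower level of one of these transcripts can come from fewer cells of a type or from less RNA per cell, which cannot be told apart.

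Promoters of 9 of the 10 genes were found in the RefSeq table (GRCm38.p6, 250 bases before to 50 bases after the transcript start). They were searched on both strands for the STAT motif TTCNNNGAA, the AP-1 motif TGANTCA, the OTX2/CRX motif TAATCC and the C/EBP motif TTGCGCAA. The STAT motif was present in Gfap and Socs3 and in 8.30% of all 32851 promoters. The AP-1 motif was present in Lif and Osmr and in 7.81% of all promoters. The OTX2/CRX motif, held by 7.06% of all promoters, and the C/EBP motif, held by 0.183%, were found in 0 of the 9 windows. The 4 promoters with a match are shown because Gfap and Osmr are the genes with the clearest age pattern described here, and Socs3 and Lif are their neighbours in the pathway. Capitals mark the match. Bases are counted from the transcript start, with no base 0. The Gfap window lies at chr11:102897151-102897450 on the minus strand and its match runs from base -2 to 7. The Socs3 window lies at chr11:117969317-117969616 on the minus strand and its match from -154 to -146. The Osmr window lies at chr15:6874264-6874563 on the minus strand and its match from 4 to 10. The Lif window lies at chr11:4257318-4257617 on the plus strand and its match from -228 to -222.
Gfap: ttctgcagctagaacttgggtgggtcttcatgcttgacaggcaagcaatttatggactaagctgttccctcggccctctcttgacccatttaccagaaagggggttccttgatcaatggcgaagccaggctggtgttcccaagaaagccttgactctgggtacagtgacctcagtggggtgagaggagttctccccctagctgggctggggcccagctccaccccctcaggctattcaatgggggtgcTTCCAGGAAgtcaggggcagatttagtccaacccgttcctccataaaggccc
Socs3: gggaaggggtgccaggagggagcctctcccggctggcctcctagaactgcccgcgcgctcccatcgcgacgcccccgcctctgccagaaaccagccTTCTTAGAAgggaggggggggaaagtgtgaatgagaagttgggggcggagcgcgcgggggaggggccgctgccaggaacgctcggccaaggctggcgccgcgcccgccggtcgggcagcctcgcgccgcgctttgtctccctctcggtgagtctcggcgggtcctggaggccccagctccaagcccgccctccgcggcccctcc
Osmr: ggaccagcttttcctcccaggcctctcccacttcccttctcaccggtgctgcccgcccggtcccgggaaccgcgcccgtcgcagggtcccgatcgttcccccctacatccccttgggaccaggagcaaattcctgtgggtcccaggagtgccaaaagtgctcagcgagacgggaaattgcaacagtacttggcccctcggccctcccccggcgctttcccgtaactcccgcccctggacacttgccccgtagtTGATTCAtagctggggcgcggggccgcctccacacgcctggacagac
Lif: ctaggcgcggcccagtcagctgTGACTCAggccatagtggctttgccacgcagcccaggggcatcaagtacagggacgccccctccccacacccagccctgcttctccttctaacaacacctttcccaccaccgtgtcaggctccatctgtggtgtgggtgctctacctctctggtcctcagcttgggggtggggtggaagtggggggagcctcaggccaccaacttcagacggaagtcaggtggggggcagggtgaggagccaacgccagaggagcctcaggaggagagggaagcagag
A match is a description of these letters only.

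The libraries held 29701483 to 60145034 counts on genes. The counts were scaled to CPM (the share of a library's counts, scaled to a common total) by the TMM method, 18628 genes passed a filter on low counts, and all 10 genes were among them. Retinal markers were abundant in every library, with 10 Müller glia markers summing to 4375 to 5144 CPM. Material from other parts of the eye differed between libraries. Summed over 8 lens markers, mice 3, 4 and 5 had 8178, 5771 and 6244 CPM, and the other mice had 21.1 to 739.5 CPM. Summed over 10 RPE markers, P30 mice 2 and 3 had 869.8 and 824 CPM, and the other mice had 90.6 to 274.5 CPM. The RPE markers did not move together between P30 and P34. The pigment genes Tyr, Tyrp1, Pmel, Mlana and Dct changed by -4.42 (Mlana) to -2.71 (Tyr) log2 units. Rpe65, Best1, Lrat, Rdh5 and Ttr changed by -0.37 (Best1) to 0.33 (Rpe65). The RPE sum therefore does not stand for all RPE markers. Summed over 8 markers of ciliary body and iris, P30 mice 1, 2 and 3 had 59.0, 215 and 230 CPM, P32 mice 26.8 to 81.0, P34 mice 17.5 to 25.1 and P38 mice 32.3 to 51.8 CPM, and 6 of the 7 tested were called lower at P34 than at P30. Xist and Y-linked counts showed that all 3 P30 mice were female, whereas 5 of the 9 cKO mice were male (4, 7, 8, 10 and 11). Otx2 itself was counted over all exons at 293 to 328 CPM in P30 and 307 to 377 CPM in the cKO mice, and this count does not separate deleted from intact alleles.

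Levels differed widely among the 10 genes when expressed per kilobase of exon. Vim led at a mean of 50.9 CPM per kb (22.2 to 122 over the 12 mice), followed by Serpina3n at 12.4 (1.53 to 25.2), Gfap at 6.95 (3.58 to 11.6) and Stat3 at 6.25 (5.02 to 7.22). Fgf2 (2.44), Socs3 (1.19), Osmr (0.637) and Cebpd (0.443) came next in CPM per kb, and Bcl3 (0.126) and Lif (0.103) were lowest. Vim overlapped Serpina3n in range, Serpina3n overlapped Gfap, and Gfap overlapped Stat3. Socs3 (0.810 to 1.58), Osmr (0.433 to 0.825) and Cebpd (0.221 to 1.18) overlapped too, as did Bcl3 (0.0498 to 0.212) and Lif (0.0502 to 0.166). Stat3 and Fgf2, Fgf2 and Socs3, and Cebpd and Bcl3 did not overlap. Within single mice, Vim was above Serpina3n and Socs3 above Osmr in 12 of 12, and Osmr was above Cebpd in 11 of 12. The order of the other neighbours varied between mice, with Serpina3n above Gfap in 9 of 12, Gfap above Stat3 in 5 of 12 and Bcl3 above Lif in 8 of 12. Lif rested on 7 to 28 counts per library and Bcl3 on 5 to 26, and a modest difference in either was not detectable at this depth.

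None of the 10 genes was called different from P30 at any age. Calls required an adjusted p (Benjamini-Hochberg) no greater than 0.05 together with a fold change of 0.5 log2 units or more, tested by quasi-likelihood in edgeR in a single fit of the 12 mice. By this rule 0 of the 10 genes passed at P32 (0% of all genes tested), 0 at P34 (0.66%) and 0 at P38 (0%). With the unadjusted p in its place, again 0 of the 10 passed at each age, against 2.9% (P32), 6.27% (P34) and 3.46% (P38) of all genes, and DESeq2 called 0 at each age, against 0.134%, 1.67% and 0.25% of the genes it gave an adjusted p. With the 9 cKO mice taken as 1 group, 0 of the 10 passed against 0.0537% of all genes, 0 passed at the unadjusted p against 1.88%, and DESeq2 called 0 against 0.238%. The plot of change against P30 shows 5 of the 10 genes (Lif, Fgf2, Osmr, Socs3 and Stat3) within 0.5 log2 units of 0 at every age and the other 5 beyond it at 1 age each, with wide errors for Serpina3n, Cebpd, Bcl3 and Vim.

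**Figure D1:**
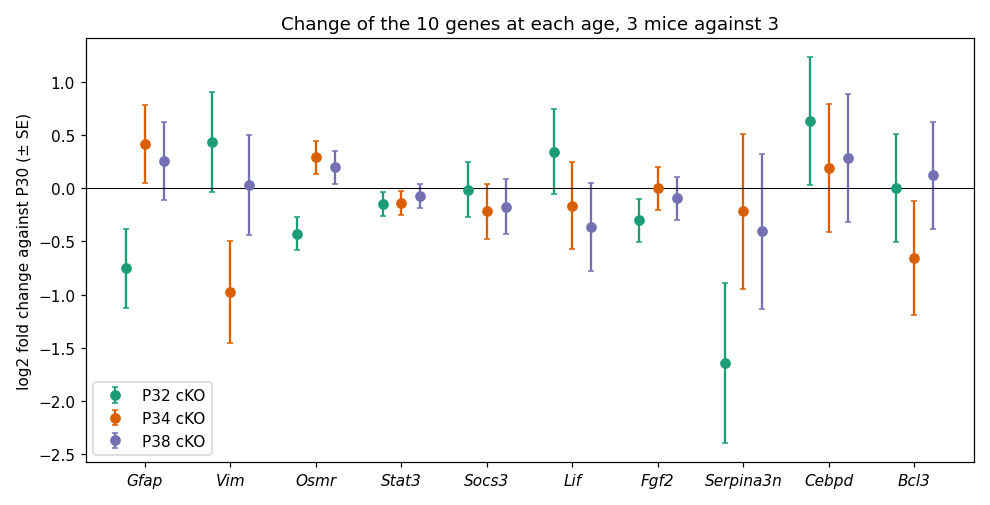
Log2 fold change against the P30 controls (points, 3 mice against 3) with its standard error (bars) for each of the 10 genes at P32, P34 and P38. Serpina3n at P32 is lowest at -1.64, Osmr and Stat3 have the shortest bars, and no gene passed the adjusted test.

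Between cKO ages, P32 to P34 had the largest shares of all genes of any pair of conditions without overlap (28.4%) and past the unadjusted rule (14.4%), although by the adjusted rule P34 against P30 had more. Among the 10 genes, Gfap, Osmr and Fgf2 had P34 values that did not overlap P32 values, and Gfap, Osmr and Vim passed the unadjusted rule, 3 of 10 in each case. At the adjusted p 0 of the 10 passed, against 0.242% of all genes, while DESeq2 with its own filter and adjustment called 2 of them, Gfap and Osmr, and 8.02% of all genes. From P32 to P38, Gfap and Osmr again did not overlap (26.4% of all genes) and passed the unadjusted rule (11.9%), 0 passed the adjusted rule (0% of all genes), and DESeq2 called 1, Osmr, and 5.2% of all genes. From P34 to P38, Bcl3 and Vim did not overlap (9.95%), and 0 of the 10 passed the unadjusted (3.81%) or adjusted (0.199%) rule or DESeq2 (0.707%). Over any difference among the 4 conditions, Gfap and Osmr passed at the unadjusted p (17.2% of all genes), 0 at the adjusted p (0.344%), and 1, Osmr, in DESeq2 (7.05%). These comparisons share mice, so they are given side by side and not as separate evidence.

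Gfap (ENSMUSG00000020932, GRCm38 chromosome 11, bases 102887336 to 102900912, minus strand), which encodes the filament protein read as the classical sign of gliosis, was highest at P34 and P38 in value and lowest at P32. It stood at 20.2, 20.1 and 45.1 CPM in the P30 mice. The P32 mice had 16.4, 19.1 and 15.1 CPM, the P34 mice 47.4, 22.3 and 44.1 CPM, and the P38 mice 49.1, 23.4 and 29.4 CPM. All P32 values were below all others, whereas P30 mouse 3 was close to the highest cKO mice, so the P30 and P34 ranges overlapped. The means were 28.5 ± 14.4 CPM (SD, n = 3) at P30, 16.9 ± 2.05 at P32, 37.9 ± 13.6 at P34 and 33.95 ± 13.4 at P38. Relative to P30 the log2 fold change was -0.75 (standard error 0.37, adjusted p = 0.698 by edgeR) at P32, 0.42 (0.37, adjusted p = 0.734) at P34 and 0.26 (0.37, adjusted p = 0.927) at P38. Leaving out P30 mouse 3 turned these values into -0.26, 0.90 and 0.75 on the log2 scale, with adjusted p of 0.923, 0.387 and 0.690 by edgeR. P34 exceeded P32 by 1.17 on the log2 scale, or 2.25-fold (standard error 0.37, unadjusted p = 0.00886, adjusted p = 0.103 by edgeR, adjusted p = 0.0197 by DESeq2). The summed CPM of 7 rod markers ran in the same direction, from 56412 to 61610 at P32 and from 71058 to 94816 at P34, and its part in the result was not tested. Over all cKO mice Gfap was 0.03 log2 CPM above P30 (exact permutation test of 9 against 3 mice, two-sided p = 0.946, with 0.00455 the smallest p possible).

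**Figure D2:**
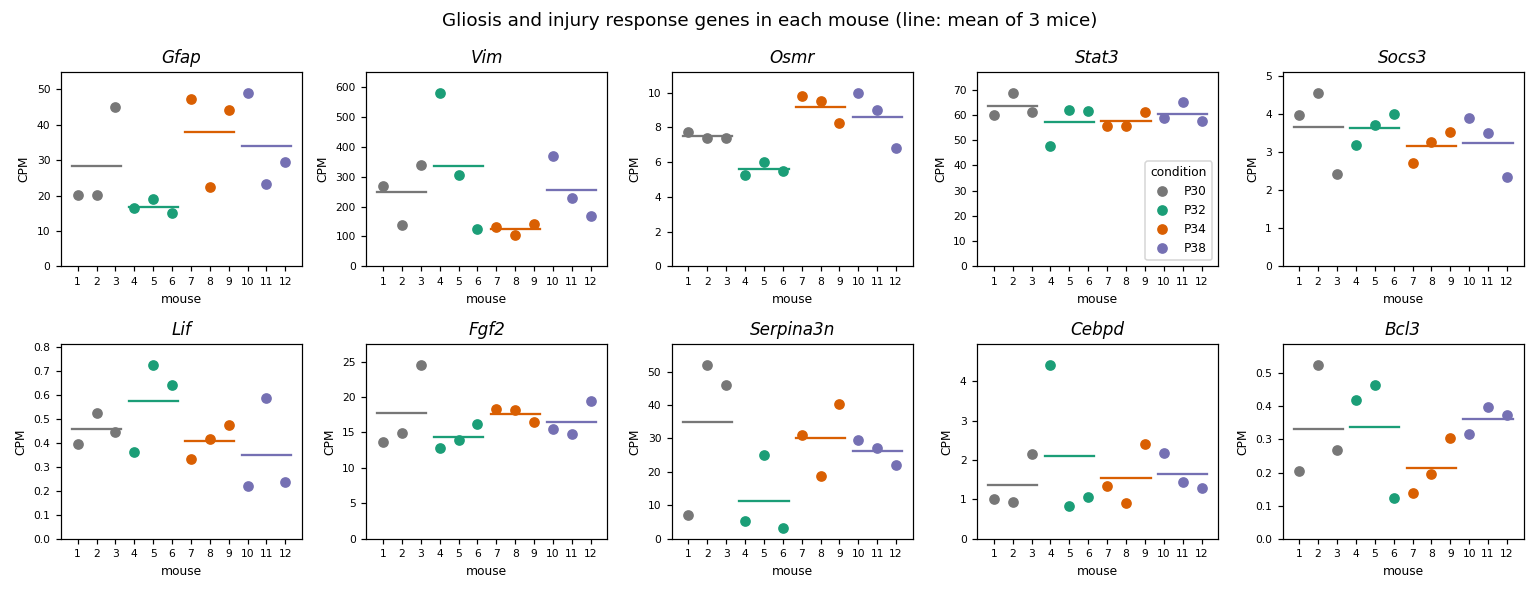
CPM of the 10 genes (1 panel each) in mice 1 to 12, colored by condition, with a line at the mean of 3 mice. Gfap and Osmr are low in P32 mice 4 to 6, Serpina3n is low in mice 1, 4 and 6, and Cebpd is high in mouse 4.

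The 5 genes tested whose level across the 12 mice was most like that of Gfap, by Pearson's r of log2 CPM, were Gm8927 (r = 0.968) and Gm12070 (r = 0.925), both annotated as processed pseudogenes, and the protein-coding genes Mapre1 (r = 0.910), Eif3c (r = 0.905) and Fam210b (r = 0.901). These r values describe 12 libraries that share their depth and tissue makeup, and carry no test. Gm8927 had 0.370 to 0.994 CPM.

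Vim (ENSMUSG00000026728, GRCm38 chromosome 2, bases 13573927 to 13582826, plus strand) encodes vimentin, the filament protein of Müller glia that is also made by lens, vessel and other cells. P30 mice had 268, 139 and 338 CPM. P32 mice had 580.0, 305 and 124 CPM, P34 mice 131, 105 and 143 CPM, and P38 mice 367, 228 and 167 CPM. The P34 mice were close together at low values, and the P32 mice spread over almost the whole range. The P34 mean lay -0.98 log2 units from P30 (standard error 0.48, adjusted p = 0.510 by edgeR) and -1.41 (0.48, unadjusted p = 0.0127, adjusted p = 0.111) from P32, whereas P38 against P34 gave 1.01 (0.48, adjusted p = 1). Leaving out each mouse moved the P34 against P32 value from -1.81 without P32 mouse 6 (adjusted p = 0.0175) to -0.77 without P32 mouse 4 (adjusted p = 0.406 by edgeR). The 6 mice with the highest Vim, from 228 CPM up, shared 5 mice with the 6 highest in the lens sum, and likewise 5 with the 6 highest in the RPE, in the ciliary body and iris and in the astrocyte sums. Without mice 3, 4 and 5 the P34 against P32 value was 0.02, with P32 represented by mouse 6 alone, the lowest of the P32 mice in Vim and assumed to vary like the other groups, so this value is no test of lens material. The part of these tissues in the Vim levels was not tested.

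**Figure D3:**
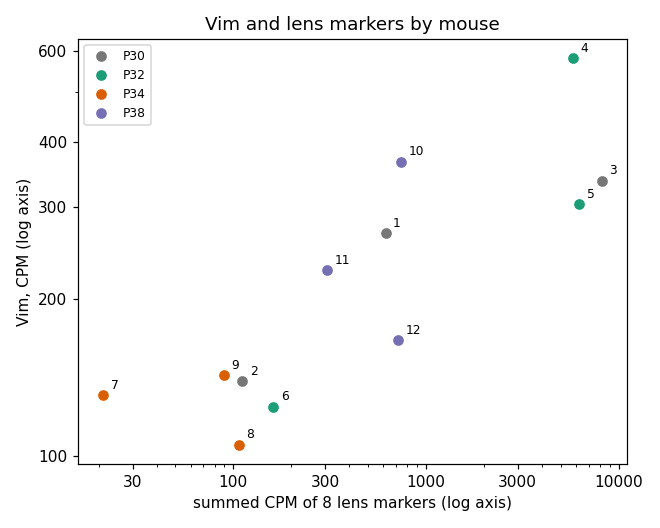
Vim (CPM, log axis) against the summed CPM of 8 lens markers (log axis), 1 point per mouse with its number, colored by condition. The P34 mice lie at 21.1 to 107 lens CPM with Vim at 105 to 143 CPM, and mice 3, 4 and 5 lie at the right with Vim at 305 to 580.0 CPM.

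The other filament genes of the same list, Nes, Des and Synm, did not pass either. Nestin (Nes) was at 8.56, 8.28 and 8.86 CPM at P30 and 8.10, 7.52 and 6.33 CPM at P32. The P34 mice had 9.001, 7.06 and 10.3 CPM and the P38 mice 10.99, 10.8 and 8.96 CPM, so that P32 lay below and P38 above P30 with no overlap (9.65% and 16.2% of all genes). The log2 fold change of Nes was -0.23 (standard error 0.16) at P32 and 0.26 (0.16) at P38, adjusted p = 0.698 and 0.847 by edgeR. Of the 5 filament genes, 4 were below P30 in value at P32 and 4 above at P38, with a median log2 fold change of -0.23 and 0.15, where the median of all genes was -0.01 at both ages.

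Osmr (ENSMUSG00000022146, GRCm38 chromosome 15, bases 6813577 to 6874969, minus strand) encodes the oncostatin M receptor subunit that pairs with gp130, and had the tightest replicates among the genes that moved in value. P30 mice had 7.71, 7.41 and 7.40 CPM, and P32 mice 5.25, 5.996 and 5.50 CPM. P34 mice had 9.80, 9.51 and 8.26 CPM and P38 mice 10.00, 8.98 and 6.82 CPM. All P32 mice were below all P30 mice, which held for Gfap and Osmr among the 10 genes (9.65% of all genes did not overlap in that comparison), and all P34 mice were above them, which held for Osmr alone (20.1%). From P30 to P38, 0 of the 10 genes did so (16.2%), and with the 9 cKO mice as 1 group 0 did so (0.601%). The change against P30 was -0.43 on the log2 scale (standard error 0.15, unadjusted p = 0.0169, adjusted p = 0.698) at P32, 0.29 (0.15, adjusted p = 0.540) at P34 and 0.20 (0.15, adjusted p = 0.856) at P38 by edgeR. P34 was 1.65-fold P32 (log2 fold change 0.72, standard error 0.15, unadjusted p = 0.000573, adjusted p = 0.0947 by edgeR and 0.00176 by DESeq2), and P38 was 1.54-fold P32 (0.63, standard error 0.15, adjusted p = 0.114 by edgeR and 0.00956 by DESeq2). The rod marker sum, given above for Gfap, also moved with Osmr, with 5 mice shared between the 6 highest in each, and its part in the result was not tested. The ligand for this receptor, Osm, and the ligands Il6 and Cntf had at most 15 counts in any library and were not tested.

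Among the 9 gp130 receptor and kinase genes, 7 were below P30 at P32 in value, with a median log2 fold change of -0.14 where all genes had -0.01, and 0 passed at any age against P30 by the adjusted rule. P32 mouse 4 was the lowest of the 12 mice in Il6st, Lifr, Osmr, Il6ra, Jak1, Jak2 and Tyk2 and the highest in Il11ra1. Il6st, for example, was at 69.7 CPM in mouse 4 and at 104 and 108 CPM in mice 5 and 6, against 103 to 132 CPM at P30. The P32 values of this list therefore lean on 1 library. At the unadjusted p 2 of the 9 passed at P32, Il6ra and Il11ra1, against 2.9% of all genes. Il6ra, the interleukin 6 receptor, was at 0.741, 0.646 and 0.773 CPM at P30 and 0.210, 0.439 and 0.4929 CPM at P32, and Il11ra1, the receptor of interleukin 11, was at 13.2, 11.8 and 14.3 CPM at P30 and 24.1, 14.7 and 16.9 CPM at P32. These did not overlap in either gene (as in 9.65% of all genes), and the adjusted p was 0.698 for both by edgeR. The kinase Jak1 was at 158, 158 and 168 CPM at P30 and at 202, 176 and 185 CPM at P34, again without overlap, as in 20.1% of all genes (log2 fold change 0.22, standard error 0.13, adjusted p = 0.583).

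Stat3 (ENSMUSG00000004040, GRCm38 chromosome 11, bases 100885098 to 100939540, minus strand), the transcription factor downstream of gp130, was the steadiest of the 10 genes, with a coefficient of variation of 8.79% over the 12 mice. It stood at 60.0, 68.8 and 61.2 CPM in P30 mice, then at 47.9, 62.0 and 61.5 CPM at P32. P34 values of 55.7, 55.5 and 61.2 CPM were followed by 58.7, 64.9 and 57.7 CPM at P38. The groups overlapped at every age, and the log2 fold changes were -0.15, -0.14 and -0.07, each with a standard error of 0.11 and adjusted p of 0.701, 0.699 and 0.941 by edgeR. RNA level does not report STAT3 phosphorylation. Socs3 (ENSMUSG00000053113, GRCm38 chromosome 11, bases 117966079 to 117970047, minus strand), the feedback inhibitor that STAT3 induces, was at 3.97, 4.56 and 2.44 CPM at P30 and 3.18, 3.72 and 4.02 CPM at P32. P34 mice had 2.71, 3.26 and 3.52 CPM and P38 mice 3.91, 3.49 and 2.34 CPM. Its log2 fold changes of -0.01, -0.22 and -0.17 (standard error 0.26 each) did not pass, with adjusted p of 0.992, 0.823 and 0.931. Of 9 tested genes of the STAT and feedback list, 0 passed against P30 at any age. Cish, a cytokine-induced feedback gene, was at 11.3, 13.003 and 13.1 CPM at P30 and 9.83, 9.46 and 10.1 CPM at P34 (log2 fold change -0.35, standard error 0.10, unadjusted p = 0.00637, adjusted p = 0.255 by edgeR), without overlap (20.1% of all genes).

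Among the ligands, Lif (ENSMUSG00000034394, GRCm38 chromosome 11, bases 4257557 to 4272514, plus strand), the PR-protective cytokine of Müller glia, was at 0.394, 0.525 and 0.446 CPM at P30 and 0.360, 0.724 and 0.641 CPM at P32. At P34 it stood at 0.331, 0.416 and 0.474 CPM, and by P38 it was 0.218, 0.586 and 0.238 CPM. The groups overlapped throughout, and the log2 fold changes were 0.35 (standard error 0.40), -0.16 (0.41) and -0.36 (0.41), adjusted p = 0.767, 0.931 and 0.904 by edgeR. Fgf2 (ENSMUSG00000037225, GRCm38 chromosome 3, bases 37348346 to 37410108, plus strand), a growth factor that protects PRs, was at 13.6, 14.9 and 24.5 CPM at P30 and 12.8, 13.9 and 16.2 CPM at P32. The P34 mice had 18.4, 18.1 and 16.5 CPM and the P38 mice 15.5, 14.7 and 19.4 CPM. P30 mouse 3 was the highest of all, and P34 was above P32 in every mouse. The P34 against P32 value was 0.30 on the log2 scale (standard error 0.20, adjusted p = 0.351 by edgeR). Against P30 the Fgf2 values were -0.30, 0.00 and -0.10 (0.20 each), adjusted p = 0.698, 0.999 and 0.955 by edgeR. In the list of FGF family and neurotrophic genes, not all of them secreted ligands, 0 of 11 tested genes passed at any age against P30. Fgf12 was the member with the clearest separation, at 81.8, 75.7 and 95.2 CPM at P30 and 134, 102 and 117 CPM at P34 (0.48, standard error 0.14, unadjusted p = 0.00572, adjusted p = 0.248), where 20.1% of all genes did not overlap. Of the FGF receptors and feedback genes, Fgfr1 fell at P34, from 32.2, 32.3 and 38.5 CPM to 20.6, 20.0 and 21.9 CPM (log2 fold change -0.72, standard error 0.12, adjusted p = 0.0199 by edgeR). This call was lost with sex as a covariate (adjusted p = 0.0577) and without mouse 2, 3, 7, 8 or 9 (adjusted p of up to 0.130), with the same direction in each. Fgfr2 and Fgfr3 were at 7.96 to 24.3 and 0.989 to 20.0 CPM in P30 mice and at 1.94 to 2.73 and 0.331 to 0.745 CPM in P34 mice, and did not pass (adjusted p = 0.164 and 0.254). Both were highest in mice 1, 3, 4, 5, 10 and 11, among them the lens-rich mice 3, 4 and 5, and the part of lens material in them was not tested.

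Serpina3n (ENSMUSG00000021091, GRCm38 chromosome 12, bases 104406729 to 104414329, plus strand), a secreted protease inhibitor and acute-phase gene that reactive astrocytes induce, split the mice across conditions. P30 mice had 6.97, 52.0 and 45.9 CPM. P32 mice had 5.16, 25.1 and 3.15 CPM, P34 mice 31.1, 18.6 and 40.4 CPM and P38 mice 29.6, 27.3 and 22.2 CPM. Mice 1, 4 and 6 lay at 3.15 to 6.97 CPM and the other 9 at 18.6 to 52.0 CPM, 1 low mouse belonging to P30 and 2 to P32. The P32 against P30 value was -1.64 on the log2 scale, with the largest standard error of the 10 genes (0.75, adjusted p = 0.698 by edgeR), and it ran from -3.07 without P32 mouse 5 (adjusted p = 0.675) to -1.20 without P32 mouse 6 (adjusted p = 0.387). The neighbouring paralogs Serpina3f (GRCm38 chromosome 12, bases 104214544 to 104221129) and Serpina3m (104338486 to 104394257) had 0 and at most 1 count in the same 3 mice, and at least 23 and 13 counts in each of the other 9. Serpina3g, from 104236245 to 104241939, had 0.591 to 1.63 CPM in all 12 mice. Across the 12 mice r with Serpina3n was 0.95 for Serpina3f, 0.92 for Serpina3m and 0.44 for Serpina3g. Serpina3 genes are close paralogs, reads between them can be lost or misassigned in 50 bp data, and these levels are therefore uncertain. An inherited difference between the mice, a difference in expression and an effect of how reads were assigned cannot be told apart from these counts.

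**Figure D4:**
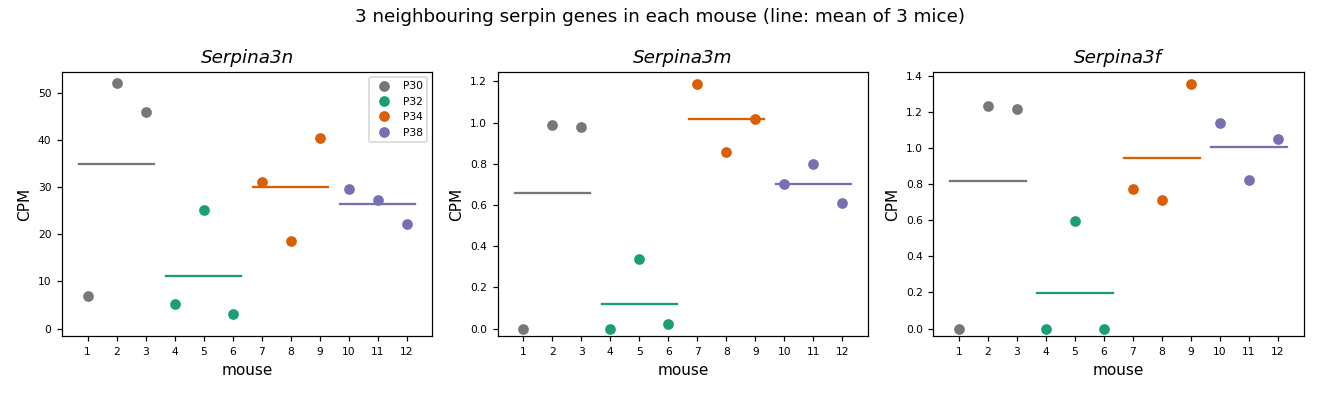
CPM of Serpina3n, Serpina3m and Serpina3f (1 panel each) in mice 1 to 12, colored by condition, with a line at the mean of 3 mice. Mice 1, 4 and 6 are low in all 3 genes, at 0 counts for Serpina3f.

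Cebpd (ENSMUSG00000071637, GRCm38 chromosome 16, bases 15887286 to 15891031, plus strand), a C/EBP factor of the acute-phase response, was at 1.01, 0.929 and 2.14 CPM at P30 and 4.41, 0.827 and 1.06 CPM at P32. P34 values of 1.33, 0.906 and 2.40 CPM were followed by 2.18, 1.43 and 1.29 CPM at P38. P32 mouse 4 was alone at the top, and the log2 fold change at P32 went from 0.63 (standard error 0.60, adjusted p = 0.731 by edgeR) to -0.50 without it. Bcl3 (ENSMUSG00000053175, GRCm38 chromosome 7, bases 19808462 to 19822770, minus strand), an NF-kB cofactor, was at 0.205, 0.525 and 0.267 CPM at P30 and 0.420, 0.465 and 0.123 CPM at P32. P34 mice had 0.138, 0.196 and 0.305 CPM and P38 mice 0.315, 0.399 and 0.373 CPM. It overlapped P30 at every age, with log2 fold changes of 0.01 (0.51), -0.66 (0.54) and 0.12 (0.50) and adjusted p of 0.998, 0.706 and 0.980 by edgeR. Of 9 tested acute-phase, C/EBP and NF-kB genes 0 passed at any age. A2m was at 14.2, 20.2 and 21.6 CPM at P30 and 11.9, 13.1 and 11.6 CPM at P32, without overlap, as in 9.65% of all genes (log2 fold change -0.61, standard error 0.19, adjusted p = 0.698), and Cp, an iron oxidase, was at 215, 183 and 231 CPM at P30 and 155, 137 and 158 CPM at P34 (-0.48, standard error 0.15, adjusted p = 0.290). Saa3, Hp, Ccl2, Cxcl1 and Cebpb had at most 11 counts in any library and were not tested.

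Wider lists of reactive astrocyte genes gave no rise by the adjusted edgeR rule. Over 12 pathway lists of 118 genes in all, which hold the 10, 93 other genes were tested by edgeR. At P34 3 fell, Fgfr1, Fbln5 and Tgm1, with 0 rising at any age, where 0.66% of all genes were called at P34 and all of these were lower. These counts depend on the tool, and DESeq2 calls of the list genes are not given here. The paper, using DESeq2, lists Dusp1 and Nr4a1 as higher at 2 d. It lists Fgfr1, Fbln5, Serping1 and Timp1 as lower at 4 d, and Tgm1 as lower at 2, 4 and 8 d. Of 11 tested pan-reactive genes 0 passed, and against P30 their median log2 fold change was -0.41 for the P34 mice, 0.02 for P32 and 0.03 for P38, where the medians of all genes were 0.00, -0.01 and -0.01. Within it, Timp1 was at 0.883, 1.13 and 0.832 CPM at P30 and 0.359, 0.294 and 0.237 CPM at P34 (adjusted p = 0.291), and Hspb1 was above 10 CPM only in lens-rich mice 3, 4 and 5. Of 11 tested A1 genes Fbln5, an elastic fibre protein, fell at P34 from 4.78, 6.80 and 8.41 CPM to 1.71, 1.27 and 3.15 CPM (log2 fold change -1.71, standard error 0.31, adjusted p = 0.0313 by edgeR). The ciliary body and iris markers moved with it, with the same order of P30 mice 1, 2 and 3, and their part in the fall was not tested. The Fbln5 call was lost with sex as a covariate (adjusted p = 0.0733), with only P30 and P34 fitted (0.0729), without mice 3, 4 and 5 together (0.0812) and without mouse 2, 3, 7, 8, 10 or 11 (up to 0.183). Of 10 tested A2 genes Tgm1, a transglutaminase, fell at P34 from 0.789, 6.28 and 5.71 CPM to 0.221, 0.122 and 0.169 CPM (-4.62, standard error 0.77, adjusted p = 0.0178). Its call at P34 was lost with sex as a covariate (adjusted p = 0.0540) and without mouse 2, 3, 7, 8 or 9 (up to 0.130). Over all cKO mice Tgm1 was at -3.62 on the log2 scale (standard error 0.52, adjusted p = 0.0280), a call that was lost with sex as a covariate (adjusted p = 0.439), without mice 3, 4 and 5 together (0.150) and without mouse 2, 3, 6, 7, 8, 9, 10, 11 or 12 (up to 0.380). Tgm1 was high in P30 mice 2 and 3, the mice highest in the sums of RPE markers and of ciliary body and iris markers, and the part of these tissues was not tested. Of the RPE markers, Rpe65, Best1, Lrat, Rdh5 and Ttr were not called different between P30 and P34 (adjusted p of 0.767 to 0.973 by edgeR). Tyrp1 and Mlana were called lower at P34 (adjusted p = 0.03165 for each by edgeR). Tyr, Pmel and Dct were lower at P34 without overlap but were not called. Of 10 glucocorticoid response genes 0 passed at any age. Other genes with the largest P34 values in their lists (B3gnt5, Cd14, Cd44, Clcf1, Des, Gdnf, Hif3a, Iigp1, Il11, Mt2, Pdk4, Pias3, Ptpn11, Relb, Serping1 and Synm) did not pass. They ran from -3.90 (B3gnt5, standard error 1.26, adjusted p = 0.293 by edgeR) to 0.93 (Iigp1, standard error 0.62, adjusted p = 0.629) on the log2 scale. Serping1, the inhibitor of the complement protease C1, came nearest, at a mean of 14.9 CPM at P30 and 4.83 CPM at P34 (-1.63, standard error 0.34, adjusted p = 0.057). B3gnt5 was highest in mice 1, 3, 4, 5, 10 and 11, as Fgfr2 and Fgfr3 were, at 11.6 to 30.6 CPM against 0.727 to 2.92 CPM in the others. Serping1 was at 12.8 to 17.9 CPM in those mice, 14.1 CPM in mouse 2 and 3.82 to 8.72 CPM in the rest. The part of other eye tissues in both genes was not tested.

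**Figure D5:**
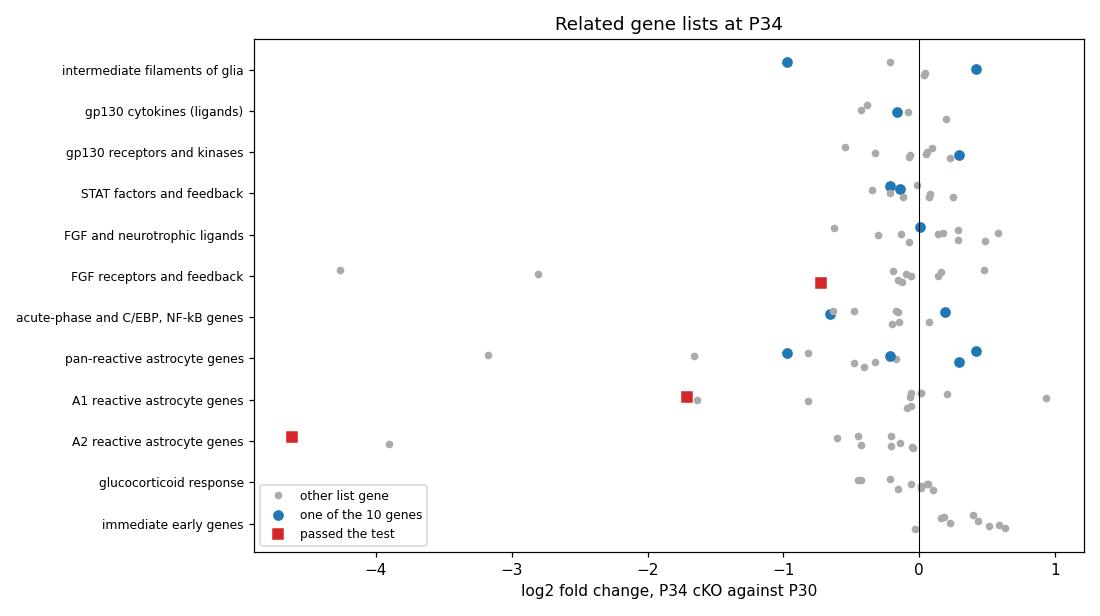
Log2 fold change at P34 against P30 of each tested gene in the 12 pathway lists (1 row each), with the 10 genes in blue and genes that passed the adjusted test as red squares. Fgfr1, Fbln5 and Tgm1 are the 3 that passed, all lower at P34.

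Immediate early genes stood higher at P32 in value. Of 9 tested, 8 were above P30 at P32, with a median log2 fold change of 0.71 where all genes had -0.01, and 0 passed the adjusted edgeR rule, while 4 passed at the unadjusted p, as 2.9% of all genes did. The paper, using DESeq2, lists Dusp1 and Nr4a1 as higher at this age. Egr1, an activity-induced factor, was at 12.1, 17.3 and 68.6 CPM at P30 and 86.8, 94.6 and 105 CPM at P32 (1.55, standard error 0.55, adjusted p = 0.698). Fos was at 18.1, 18.7 and 32.7 CPM at P30 and 40.8, 51.7 and 52.5 CPM at P32 (1.06, standard error 0.29, adjusted p = 0.698). Dusp1, a phosphatase of MAP kinases, was at 13.1, 13.7 and 17.0 CPM at P30 and 31.6, 29.9 and 30.0 CPM at P32 (1.07, standard error 0.21, adjusted p = 0.592). These 3 did not overlap between P30 and P32, which held for 9.65% of all genes. Their log2 fold changes were 0.51, 0.58 and 0.63 at P34, where again 8 of the 9 were above P30 (median 0.39), and -0.28, -0.48 and -0.19 at P38.

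The 10 genes did not move as 1 group across the mice. Over the 45 pairs, Pearson's r of log2 CPM over the 12 mice had a median of -0.02, with 21 pairs above 0, 5 above 0.5 and 3 below -0.5, and 0 of those 5 stayed above 0.5 both in deviations from the condition means and without mouse 4. Another 3 pairs were above 0.5 in both of these ways but not over the 12 mice, Lif with Stat3 (0.83 and 0.59), Serpina3n with Bcl3 (0.67 and 0.62) and Socs3 with Stat3 (0.50 and 0.55). Gfap with Cebpd, at 0.32 over the 12 mice and 0.49 in the deviations, had the highest r without mouse 4 (0.84). Gfap ran with Serpina3n (r = 0.67), Osmr (r = 0.67) and Fgf2 (r = 0.59). In the deviations from condition means these were 0.45, 0.15 and 0.46. Fgf2 and Socs3 ran in opposite directions (r = -0.72, and -0.74 in the deviations). These values describe 12 libraries and carry no test. Microglia markers, a measure of the other reactive glia of the retina, summed to 66.5 to 79.1 CPM at P30 and to 63.9 to 87.6 CPM over the cKO mice, and 0 of 10 passed at any age against P30. Of the 6 astrocyte markers, Gfap among them, 1 was called lower at P34 than at P30, the gap junction gene Gja1 (from a mean of 111 to 7.05 CPM, log2 fold change -3.97, standard error 0.54, adjusted p = 0.00456 by edgeR, and 0.0515 without mouse 8). The other 5 did not pass and lay between -0.25 (Aldh1l1) and 0.42 (Gfap) on the log2 scale. The sum of the 6 was 140 to 227 CPM at P30, 82.1 to 137 at P32, 70.7 to 106 at P34 and 96.3 to 164 at P38, where it overlapped P30. It was lower at P34 through Gja1, which was lower at P34 together with the ciliary body and iris markers described above, and the part of that tissue was not tested. Oligodendrocyte markers, which would report optic nerve, summed to 35.0 to 47.3 CPM, of which Mbp made up 25.1 to 33.9 CPM, and 4 of the 8 were under 1 CPM in every mouse.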

How the data were processed

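Whole-retina RNA of 12 mice was sequenced. The authors aligned 50 bp single reads (STAR 2.5.3a, mm10), assigned them to Ensembl 93 genes (HTSeq 0.6.1p1, union mode) and deposited the raw counts of each mouse. Reads with more than 1 position were not counted. From these counts, CPM were computed with TMM factors, and the filterByExpr function removed genes of low count. The test was edgeR 4.0.16's quasi-likelihood test in R 4.3.3, all 12 mice in 1 fit, adjusted by Benjamini-Hochberg over 18628 genes. DESeq2 1.42.0 was an alternative. Other alternatives changed size factors, filters, dispersion, mice fitted, sex and thresholds. Log2 CPM used a prior count of 2. Symbols came from GENCODE M21, which named 99.9% of genes. Promoters came from RefSeq. Only the edgeR comparison of P34 against P30 was tried on simulated counts. Members and lists were chosen with earlier results of these data known. Named genes are the 10, list genes called in any comparison, up to 3 per list with the largest size of change at P34, and the 5 genes most like Gfap. Gja1 and the Serpina3 neighbours were chosen after their values were seen. Some genes that this rule gives are not reported here.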

Additional observations from a re-analysis of the deposited data

Results flagged for a closer look

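Cebpd in P32 mouse 4, at 4.41 CPM, stood apart from the other 8 cKO mice, of which the next was 2.40 CPM. Its gap to the next value was 0.560 of the range, above the 95% limit of Dixon's criterion for 9 mice, which chance passes in about 1 of 20 groups. Mouse 4 is also the library with the largest share of reads without a unique position (32.2%), has the highest sum of 5 blood markers (167 CPM, against 21.6 to 102 CPM in the other mice) and is 1 of the 3 lens-rich libraries, and the part of these in the value was not tested.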

How the results depend on the processing

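At an adjusted p of at most 0.05, none of the 10 genes was called against P30 at any age under any alternative run. The count of genes called between P32 and P34 was 0 in the reported fit, 3 with no filter on low counts (Gfap, Osmr and Vim, and 1.93% of all genes), 2 in DESeq2, 3 at the unadjusted p, 1 at an adjusted p of at most 0.1 (5.57%), and 0 to 2 when each mouse was left out, with 2 (Osmr and Vim) without P32 mouse 6, where 14.3% of all genes were called. Between P32 and P38 it was 0, with 1 in DESeq2, 2 at the unadjusted p, and 0 to 1 when each mouse was left out, with 1 (Osmr) without P32 mouse 6, where 10.2% of all genes were called. For any difference among conditions it was 0, with 1 in DESeq2 and 2 at the unadjusted p. The other counts stayed at 0.

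Several uncalled values changed sign, all as log2 fold changes against P30 unless stated, and the cause was not tested. Without mice 3, 4 and 5 together, an alternative chosen after seeing the data, Fgf2 at P32 was 0.19, Bcl3 at P32 -1.52, Vim at P32 -0.71, Serpina3n at P34 0.0323, Fgf2 at P38 0.21 and Vim between P32 and P34 0.0231. With only the conditions compared, Socs3 at P32 was 0.0129 and Fgf2 at P34 -0.0121, and with at least 1 CPM in 3 mice Fgf2 at P34 was -0.00646. With sex as a covariate, Serpina3n was 0.14 at P34 and 0.0386 at P38, Cebpd -0.0818 at P34 and -0.11 at P38, Fgf2 at P38 0.00227, Stat3 at P38 0.026 and Vim at P38 -0.45. All P30 mice were female, so sex is separable from condition only through the cKO mice. With medians in place of means, Fgf2 over all cKO mice was 0.13 and Bcl3 0.20. Leaving out each mouse gave ranges that crossed 0 at P32 for Fgf2 (-0.46 to 0.00564), Bcl3 (-0.32 to 0.51), Socs3 (-0.23 to 0.18), Cebpd (-0.50 to 1.11) and Vim (-0.21 to 0.83). They did so at P34 for Fgf2 (-0.15 to 0.30), Serpina3n (-0.70 to 0.19) and Cebpd (-0.28 to 0.65). At P38 they did so for Gfap (-0.0958 to 0.75), Fgf2 (-0.25 to 0.21), Serpina3n (-0.89 to 0.00434), Bcl3 (-0.15 to 0.63), Socs3 (-0.39 to 0.015) and Vim (-0.32 to 0.31). Over all cKO mice they did so for Gfap (-0.16 to 0.42), Fgf2 (-0.25 to 0.17), Bcl3 (-0.37 to 0.22), Osmr (-0.0374 to 0.0779), Socs3 (-0.36 to 0.0856) and Vim (-0.56 to 0.0761). Lif and Bcl3, with at most 28 counts per library, are limited by depth, and intervals from 3 mice per group are wide for all 10 genes.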
